A study of Mus musculus with 24 samples.

Results

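The 6 genes Ap5m1, Ang, Hnrnpc, Rpgrip1, Supt16 and Rab2b lie on mouse chromosome 14 in that order, and they were followed across the amygdala and hippocampus of mice labelled high or low freezing. They were chosen because earlier results of these same arrays showed differences between high and low freezing groups in both regions. Those freezing differences are therefore given here as descriptions, without tests. The genes are 6 of the 18194 that have a probe set annotated with exactly 1 symbol, and they are represented by 20 of the 45101 probe sets of the array, counting every probe set whose only symbol is 1 of the 6. Rab2b has 5 of them, Rpgrip1 has 4, Ap5m1, Ang and Hnrnpc have 3 each, and Supt16 has 2. After the dimmest 40% of probe sets were left out, 14 of the 20 remained among 27023, and each gene kept at least 1.

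Total RNA of mouse brain was hybridised to 24 single-colour Affymetrix arrays, 6 in each of 4 groups: amygdala high freezing, amygdala low freezing, hippocampus high freezing and hippocampus low freezing. All animals descend from 2 inbred strains that were crossed, C57BL/6J with A/J, and the descendants were selected for contextual fear conditioning, a test in which a mouse freezes in a place where it has received a shock. Sex, age, generation and the number of animals behind an array are not given in the sources used here, so p-values measure the spread between arrays. Arrays are called by the number in their label, 1 to 6 for low and 7 to 12 for high freezing.

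The encoded proteins have unrelated roles. Angiogenin, the product of Ang, is a secreted ribonuclease of the RNase A family that promotes blood vessel growth and can cut transfer RNA in stressed cells. Rpgrip1 encodes a scaffold of the photoreceptor connecting cilium that binds the retinitis pigmentosa GTPase regulator, and Rab2b encodes a small GTPase of the Golgi apparatus. Supt16 encodes the large subunit of FACT, the histone chaperone that loosens nucleosomes for transcription and replication. Hnrnpc encodes a nuclear protein that binds uridine-rich stretches of nascent transcripts, and Ap5m1 the mu subunit of the AP-5 adaptor complex of late endosomes. Neighbouring genes on a chromosome tend to be inherited together in a cross, and no genotype was analysed here.

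In the RefSeq gene order of assembly GRCm38.p6, Hnrnpc and Rpgrip1 are adjacent entries. There is 1 entry between Rpgrip1 and Supt16 and there are 3 between Supt16 and Rab2b. There are 48 entries between Ang and Hnrnpc, and 72 entries separate Ap5m1 from Ang. Supt16, Rab2b and Hnrnpc are transcribed from the minus strand, and Rpgrip1, Ang and Ap5m1 from the plus strand.

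Ap5m1 varied with the other genes more weakly at the probe set described first below, and more strongly at its brighter one. The promoters of the other 5 genes are printed because these varied together over the arrays, in the same or in opposite directions. Each runs from 250 bases before to 50 bases after the RefSeq gene start on GRCm38.p6, 5′ to 3′ on the gene's own strand. Capitals mark matches, on either strand, to TATAAA (the TATA box), CCAAT (the CCAAT box), GGGCGG (the GC box) or CCGGAAG (an ETS-type motif). A box below means such a match of letters at any position, and whether any of them is a working site was not tested. All 6 genes were matched in the RefSeq promoter table.
Ang: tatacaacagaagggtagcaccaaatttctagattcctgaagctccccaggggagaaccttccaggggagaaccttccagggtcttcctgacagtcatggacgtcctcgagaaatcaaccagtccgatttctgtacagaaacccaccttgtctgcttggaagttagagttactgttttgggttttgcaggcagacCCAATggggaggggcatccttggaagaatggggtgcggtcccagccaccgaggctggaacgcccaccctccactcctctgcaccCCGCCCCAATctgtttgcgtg
Rpgrip1: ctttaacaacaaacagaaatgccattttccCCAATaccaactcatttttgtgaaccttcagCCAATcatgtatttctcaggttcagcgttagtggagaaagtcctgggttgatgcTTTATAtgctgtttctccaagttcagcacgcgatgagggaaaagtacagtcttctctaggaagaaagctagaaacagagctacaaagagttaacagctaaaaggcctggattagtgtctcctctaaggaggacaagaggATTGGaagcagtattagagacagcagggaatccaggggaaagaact
Rab2b: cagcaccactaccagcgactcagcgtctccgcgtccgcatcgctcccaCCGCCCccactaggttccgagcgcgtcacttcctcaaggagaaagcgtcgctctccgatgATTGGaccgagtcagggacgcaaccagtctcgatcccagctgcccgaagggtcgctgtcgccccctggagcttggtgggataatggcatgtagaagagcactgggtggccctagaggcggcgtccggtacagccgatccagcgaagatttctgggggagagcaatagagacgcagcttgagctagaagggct
Supt16: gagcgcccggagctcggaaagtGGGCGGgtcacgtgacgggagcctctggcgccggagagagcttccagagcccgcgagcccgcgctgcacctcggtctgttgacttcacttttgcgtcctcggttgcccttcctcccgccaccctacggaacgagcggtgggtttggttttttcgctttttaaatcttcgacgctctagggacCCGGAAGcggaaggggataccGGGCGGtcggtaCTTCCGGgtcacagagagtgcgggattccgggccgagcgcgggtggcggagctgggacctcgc
Hnrnpc: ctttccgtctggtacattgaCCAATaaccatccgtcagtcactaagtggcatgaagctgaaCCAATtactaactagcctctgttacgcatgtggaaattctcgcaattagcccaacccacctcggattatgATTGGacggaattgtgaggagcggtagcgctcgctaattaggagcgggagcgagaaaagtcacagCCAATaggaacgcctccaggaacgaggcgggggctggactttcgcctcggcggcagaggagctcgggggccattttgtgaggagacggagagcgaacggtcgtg

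Ang, Rpgrip1 and Rab2b had higher signal in high freezing animals at the probe set described first below, for Rab2b not at all of its probe sets. The promoter of Ang at chr14:51090827-51091126 on the plus strand holds 8 CpG, with 2 CCAAT boxes and 1 GC box that overlaps a CCAAT box. The GC box and the CCAAT box it overlaps lie after the gene start. That of Rpgrip1 at chr14:52110653-52110952 on the plus strand holds 3 CpG, 3 CCAAT boxes and 1 TATAAA on the opposite strand. Of these, 1 CCAAT box lies after the gene start, and the TATAAA lies at -135 from it. The promoter of Rab2b at chr14:52279346-52279645 on the minus strand holds 25 CpG, 1 CCAAT box and 1 GC box. The median over 32851 promoters was 7 CpG, and 31.4% of them had no more CpG than that of Rpgrip1.

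Supt16, Hnrnpc and Ap5m1 had lower signal at the probe set described first, for Hnrnpc at 1 of 2 kept. The promoter of Supt16 at chr14:52197190-52197489 on the minus strand holds 35 CpG, 2 GC boxes and 2 CCGGAAG motifs. Hnrnpc at chr14:52103972-52104271 on the minus strand has 22 CpG and 4 CCAAT boxes. Ap5m1, whose promoter is not printed, has 41 CpG, 2 GC boxes and 2 CCGGAAG motifs, and 97% of promoters have no more CpG. Of all promoters 13.6% hold TATAAA, 37.4% CCAAT, 35.7% GGGCGG and 8.86% CCGGAAG, so most of these matches are common. No motif of the 4 is present in all 6 promoters.

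Values below are the deposited intensities, and differences are on the scale log2(intensity + 16), which understates the change of dim probe sets. Probe sets bind with different strength, so levels are compared between groups of arrays and not between probe sets. For each gene the probe set with the largest freezing difference relative to its standard error is described first, a choice made after the values were seen. The standard errors use a spread shared by all groups, so those of amygdala and hippocampus are equal by construction.

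Ang probe set 1438936_s_at was higher in high freezing animals of both regions, with the wider gap in the hippocampus. In the amygdala its intensity was 30.2 at the lowest, 50 at the median and 84.8 at the highest on the high freezing arrays, against 15.3, 25.3 and 48.7 on the low freezing arrays. The groups overlapped there, because low freezing array 2 at 48.7 stood among the high freezing arrays. In the hippocampus it was 39.4, 49.8 and 65.6 on the high freezing arrays, against 1.58, 12.4 and 30.1 on the low freezing arrays, with no overlap. The hippocampal low freezing arrays did not form 1 level: arrays 1, 2 and 6 stood at 1.58, 2.5 and 4.32 and arrays 3, 4 and 5 at 27.6, 30.1 and 20.5. The log2 difference, high minus low freezing, was 0.70 ± 0.23 in the amygdala and 1.23 ± 0.23 in the hippocampus (SE, n = 6 each). No fold is given for the hippocampus, where low freezing arrays 1, 2, 5 and 6 lay under 22.87, the lowest mean intensity kept by the filter. The size there depends on the offset added before the log: it was 2.35 with an offset of 1 and 0.55 with an offset of 64. In bulk tissue, a different number of cells of a type and a different amount of RNA per cell cannot be told apart, here and in all that follows. Whether sequence differences between the 2 parental strains change how a probe binds was not tested either, for any probe set.

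By mean intensity the order of the groups for this probe set was amygdala high freezing at 54.1 ± 19.3, hippocampus high freezing at 50.2 ± 10.3, amygdala low freezing at 27.1 ± 11.6 and hippocampus low freezing at 14.4 ± 13.2 (SD, n = 6 each). The first and second lay within their spread, and so did the third and last. The other Ang probe set kept, 1438937_x_at, had differences of the same sign, 0.55 ± 0.21 in the amygdala and 0.47 ± 0.21 in the hippocampus. Here it was the amygdala whose groups did not overlap, at 26.8 to 54.2 on the high and 12.2 to 26.5 on the low freezing arrays. That separation was narrow, resting on low freezing array 2 at 26.5 and high freezing array 8 at 26.8. This probe set is dim: its low freezing means in both regions lay under 22.87, the lowest mean intensity kept by the filter. It passed the filter through the brighter high freezing groups. The suffixes s and x of these probe sets mark probes that can match transcripts of several genes. The angiogenin genes of the mouse are close copies of each other, so how much of the signal belongs to Ang alone was not tested. The third Ang probe set, 1450717_at, was too dim to be kept, with differences of 0.13 ± 0.18 and 0.16 ± 0.18.

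Rpgrip1 was measured by 1 kept probe set, 1421144_at, and had the largest freezing differences of the 6 genes with the offset of 16. With an offset of 1 the hippocampal difference of Ang, at 2.35, was larger. In the amygdala its intensity was 574, 991 and 1310 (lowest, median, highest) on the high freezing arrays, against 260, 351 and 663 on the low freezing arrays. Hippocampal intensity was 442, 872 and 1060 on the high freezing arrays, against 38.1, 398 and 967 on the low freezing arrays. The groups overlapped in both regions. The high freezing arrays were mostly the brighter ones, and the hippocampal low freezing arrays spanned the widest range. Arrays 1, 2 and 6 of that group read 38.1, 143 and 250, while arrays 3, 4 and 5 read 967, 547 and 653. The log2 differences were 1.33 ± 0.43 in the amygdala and 1.37 ± 0.43 in the hippocampus, 2.52-fold and 2.59-fold. The shared standard error does not show that the hippocampal low freezing arrays were the most spread, so the hippocampal difference is the less precise. The hippocampal value rested in part on low freezing array 1, and it was 0.87 without that array. Means were 981 ± 279 and 811 ± 224 in the high freezing groups of amygdala and hippocampus and 384 ± 147 and 433 ± 352 in the low freezing groups (SD, n = 6 each). Within each freezing label, the regions lay within their spread. The other 3 Rpgrip1 probe sets did not pass the filter, with no array above 27.1. Their differences in amygdala and hippocampus were 0.02 ± 0.18 and 0.16 ± 0.18 for 1431357_a_at, -0.06 ± 0.16 and -0.21 ± 0.16 for 1451785_at, and 0.13 ± 0.20 and 0.04 ± 0.20 for 1454231_a_at.

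The 5 kept probe sets of Rab2b differed among themselves. Probe set 1428115_a_at read 99.3, 124 and 162 on the high freezing arrays of the amygdala, against 62.4, 78.5 and 115 on the low freezing arrays. Its hippocampal values were 116, 126 and 164 on the high freezing arrays, against 47.4, 79.6 and 128 on the low freezing arrays. Low freezing array 2 of the amygdala and low freezing arrays 3 and 4 of the hippocampus reached into the high freezing range, the arrays that were also the brightest of their groups for Ang. Its differences were 0.55 ± 0.16 in the amygdala and 0.58 ± 0.16 in the hippocampus.

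The other 4 Rab2b probe sets did not share this pattern. Probe set 1436923_at differed in the amygdala, with 113 to 167 on the high and 83.1 to 105 on the low freezing arrays and no overlap, a log2 difference of 0.48 ± 0.10. In the hippocampus its difference was 0.11 ± 0.10. Probe set 1452667_at, the brightest, differed by 0.06 ± 0.09 in the amygdala and -0.21 ± 0.09 in the hippocampus, and 1455857_a_at by 0.17 ± 0.13 and -0.01 ± 0.13. These are the 2 probe sets whose sign differed between regions. The last, 1452668_x_at, differed by -0.05 ± 0.09 and -0.08 ± 0.09. Which transcript of Rab2b each probe set measures was not tested, so a direction for Rab2b as a whole is not settled.

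Supt16 was lower in high freezing animals at both of its probe sets. Probe set 1419741_at read 270, 357 and 411 on the high freezing arrays of the amygdala, against 418, 521 and 583 on the low freezing arrays, with no overlap. The hippocampal values were 234, 357 and 455 on the high freezing arrays, against 295, 452 and 637 on the low freezing arrays, which overlapped. The arrays that were high for Rpgrip1 were low here: hippocampal low freezing array 3, the brightest of its group for Rpgrip1, was the dimmest for Supt16. The log2 differences were -0.58 ± 0.15 in the amygdala, 1.49-fold lower, and -0.38 ± 0.15 in the hippocampus, 1.30-fold lower. The dimmer probe set, 1449578_at, had -0.46 ± 0.24 and -0.57 ± 0.24, and its amygdalar value was -0.23 without high freezing array 7. By mean the order for 1419741_at was amygdala high freezing at 344 ± 59.6, hippocampus high freezing at 350 ± 86, hippocampus low freezing at 463 ± 122 and amygdala low freezing at 518 ± 59.6 (SD, n = 6 each), and the regions lay within their spread for either label.

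Hnrnpc was lower in high freezing animals at 1 of its 2 kept probe sets. Probe set 1418693_at read 351, 412 and 442 on the high freezing arrays of the amygdala, against 456, 519 and 595 on the low freezing arrays, with no overlap. In the hippocampus it read 470, 493 and 582 on the high freezing arrays, against 446, 603 and 652 on the low freezing arrays. There the low freezing arrays 3, 4 and 5, at 446, 489 and 580, stood within or below the high freezing range. The differences were -0.36 ± 0.09 in the amygdala and -0.15 ± 0.09 in the hippocampus. The brighter probe set, 1460240_a_at, differed by -0.01 ± 0.07 and -0.04 ± 0.07. The third, 1458139_at, was below the filter with differences of 0.32 ± 0.19 and 0.55 ± 0.19. The probe sets of Hnrnpc therefore disagreed in sign or size.

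Ap5m1, the gene farthest from the others, was lower in high freezing animals by a smaller amount. Probe set 1438418_at read 96.9, 128 and 152 on the high freezing arrays of the amygdala, against 135, 160 and 178 on the low freezing arrays, and these overlapped. Hippocampal values were 96.5, 113 and 121 on the high freezing arrays, against 133, 138 and 155 on the low freezing arrays, with no overlap. Unlike for Ang and Rpgrip1, the 6 hippocampal low freezing arrays lay close together at this probe set. The differences were -0.33 ± 0.09 and -0.29 ± 0.09. The brighter probe set, 1424738_at, had -0.17 ± 0.12 in the amygdala and -0.13 ± 0.12 in the hippocampus. Its hippocampal low freezing arrays were less alike. Arrays 1, 2 and 6 read 184, 219 and 179, and arrays 3, 4 and 5 read 157, 166 and 143. The third, 1424739_at, was below the filter and had the opposite sign, 0.21 ± 0.24 and 0.04 ± 0.24.

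**Figure D1:**
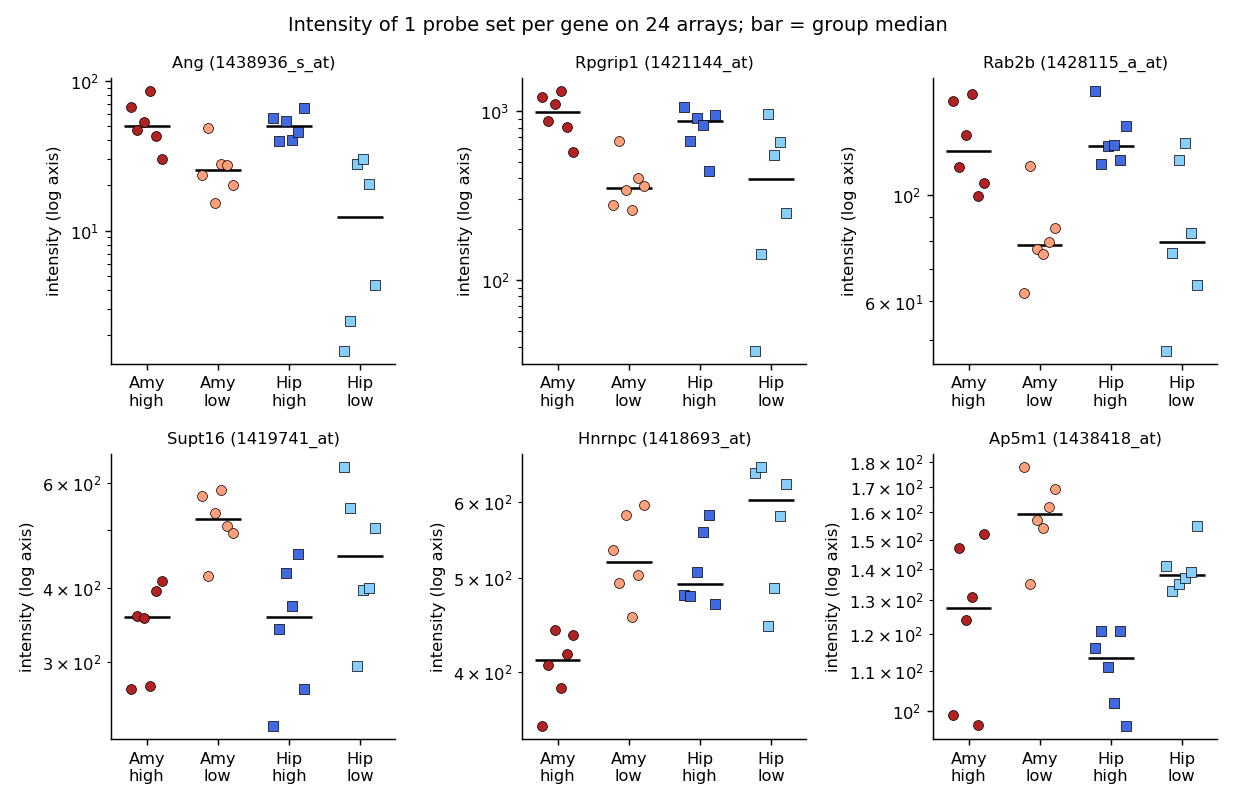
Intensity on a log axis of 1 probe set per gene, the one with the largest freezing difference relative to its standard error; each point is 1 of 24 arrays and the bar is the group median (Amy, amygdala; Hip, hippocampus). For Ang in the hippocampus the high freezing arrays sit between 39.4 and 65.6, all above the low freezing arrays at 1.58 to 30.1, and for Hnrnpc in the amygdala the high freezing arrays at 351 to 442 sit below the low freezing arrays at 456 to 595.

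Over the 14 kept probe sets, 5 had a freezing difference above 0 in both regions, 7 below 0 in both, and 2 differed in sign. High and low freezing arrays did not overlap at 4 of the 14 (28.6%) in the amygdala, where 0.551% of all kept probe sets did not. Of the 4, 2 were higher in high freezing animals, where the share over all probe sets was 0.326%, and 2 were lower, where it was 0.226%. In the hippocampus it was 2 of 14 (14.3%) against 0.818%, 1 higher (0.451% of all) and 1 lower (0.366% of all). The median size of the freezing difference was 0.41 in the amygdala and 0.25 in the hippocampus, beside 0.09 and 0.10 over all kept probe sets. The genes were chosen on these contrasts, so nothing is read from the counts. The amygdala count was 8 without low freezing array 2 of the amygdala, the array that stood with the high freezing arrays for Ang, Rpgrip1 and Rab2b.

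The plot of freezing differences by probe set shows the sign of each in both regions.

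**Figure D2:**
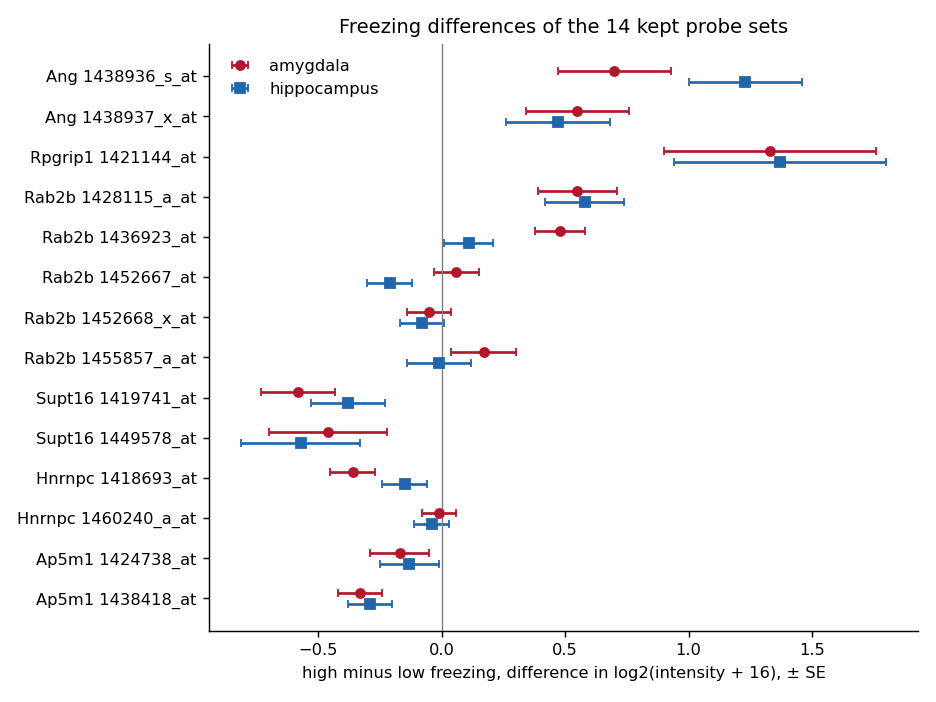
High minus low freezing difference in log2(intensity + 16) of the 14 kept probe sets, with 1 standard error to each side, amygdala as circles and hippocampus as squares. Rpgrip1 lies farthest to the right at 1.33 and 1.37, the Supt16, Hnrnpc and Ap5m1 probe sets lie at or left of 0, and the 5 Rab2b probe sets fall on both sides.

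The difference between the regional freezing differences, amygdala minus hippocampus, was -0.53 ± 0.32 for Ang 1438936_s_at and -0.04 ± 0.60 for Rpgrip1 (SE). Relative to its standard error it was largest at a pair of Rab2b probe sets, 1436923_at with 0.37 ± 0.15 and 1452667_at with 0.27 ± 0.13. The choice of genes bears on this contrast too, so it is given without a test.

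Some other measures also differed between the freezing labels. Of all genes measured, 49.3% had a freezing difference above 0 in the amygdala and 50.4% in the hippocampus. Median intensity per array was 42.6 ± 0.781 in the amygdala high freezing and 40.9 ± 1.38 in the amygdala low freezing group, and 39.8 ± 1.65 and 37.7 ± 0.749 in the high and low freezing hippocampus (SD, n = 6 each). With arrays centred on their median, the freezing differences of the 6 genes' described probe sets kept their sign. All 5 choroid plexus markers had freezing differences above 0 in the hippocampus, with a summed level of 2200 to 13300 on the high freezing arrays (median 8570) and 1870 to 11800 on the low freezing arrays (median 3530). Ttr made up most of these sums, with means of 7660 and 5430. The next brightest marker there, Kl, had means of 87.5 and 80.9. In the amygdala 1 of the 5 markers was above 0, with sums of 13800 to 20200 on the high and 15200 to 18300 on the low freezing arrays. The 4 ependymal markers were also above 0 in the hippocampus, with sums of 106 to 222 and 105 to 172 on high and low freezing arrays. The lowest group mean of any choroid plexus or ependymal marker was 20.1.

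Some lists of markers of other cell types also leaned to 1 side. Several of the values counted were close to 0, such as Csf1r at -0.04 in the hippocampus and Mobp at -0.06 in the amygdala. The summed levels overlapped between labels in every list given here. All 5 microglia markers were below 0 in both regions, with summed levels of 2860 to 3430 on high and 2880 to 4330 on low freezing arrays of the amygdala, and of 2280 to 2630 and 2370 to 2920 in the hippocampus. In the amygdala none of the 6 markers of central amygdala and striatum was above 0 (sums of 4910 to 7810 on high and 6030 to 8540 on low freezing arrays), none of 4 oligodendrocyte markers (14200 to 19800 and 14500 to 20000) and none of 4 thalamus and hypothalamus markers (718 to 3050 and 1100 to 2780). Prkcd is in the first and the last of these lists and enters both of their sums. Single markers with larger differences in both regions were the astrocyte gene Gfap, at -0.90 in the amygdala and -0.84 in the hippocampus, and the endothelial gene Adgrl4, at 0.39 and 0.57. The rest of their lists did not move with them. Of 4 astrocyte markers 1 was above 0 in the amygdala and 2 in the hippocampus, and Gja1 had 0.05 and 0.08. Of 5 endothelial markers 2 and 3 were above 0, and Flt1 had -0.17 and -0.13. The microglial gene Trem2 had -0.24 and -0.97. The part of all these cell types in the results on the 6 genes was not tested.

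At the probe sets described first, the genes also varied together within groups, Ap5m1 more weakly than the others. The genes were chosen for differences between groups. The probe sets were picked by a freezing difference relative to its standard error, in which the spread within groups enters. To follow that spread, each array's value was taken as its deviation from the mean of its own group. The 24 arrays share the array type and the deposited scaling. Among Ang, Rpgrip1 and Rab2b 1428115_a_at, Pearson's r of the deviations was between 0.82 and 0.85 for the 3 pairs. Within single groups it was 0.88 to 0.96 in amygdala high, 0.70 to 0.92 in amygdala low, 0.55 to 0.74 in hippocampus high and 0.86 to 0.90 in hippocampus low freezing arrays (n = 6 each). It was 0.75 to 0.84 over the 18 arrays other than the hippocampal low freezing ones, the group with the widest spread. These 3 genes thus went up and down together on the same arrays in each of the 4 groups.

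Supt16 ran opposite to them. The r of Supt16 1419741_at with Ang, Rpgrip1 and Rab2b was between -0.83 and -0.76 over all 24 arrays. It lay below 0 in each group, from -0.95 to -0.88 in amygdala high, -0.98 to -0.65 in amygdala low, -0.84 to -0.53 in hippocampus high and -0.95 to -0.87 in hippocampus low freezing arrays. Hnrnpc 1418693_at had r between -0.77 and -0.63 with the same 3 genes and 0.71 with Supt16. In the amygdala low freezing group the relation of Hnrnpc was weaker, -0.67 to -0.04 with the 3 genes and -0.07 with Supt16. Ap5m1 1438418_at, the most distant gene, had r between -0.34 and -0.25 with Ang, Rpgrip1 and Rab2b, and between 0.28 and 0.31 with Supt16 and Hnrnpc. Its brighter probe set, 1424738_at, had an r of -0.63 with Ang, -0.58 with Rpgrip1 and -0.51 with Rab2b 1428115_a_at. The r of that probe set was 0.68 with Supt16 1419741_at and 0.56 with Hnrnpc 1418693_at, so the weaker relation of Ap5m1 was seen at 1 probe set. These correlations are descriptions without a p, since the probe sets were picked after their values were seen.

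**Figure D3:**
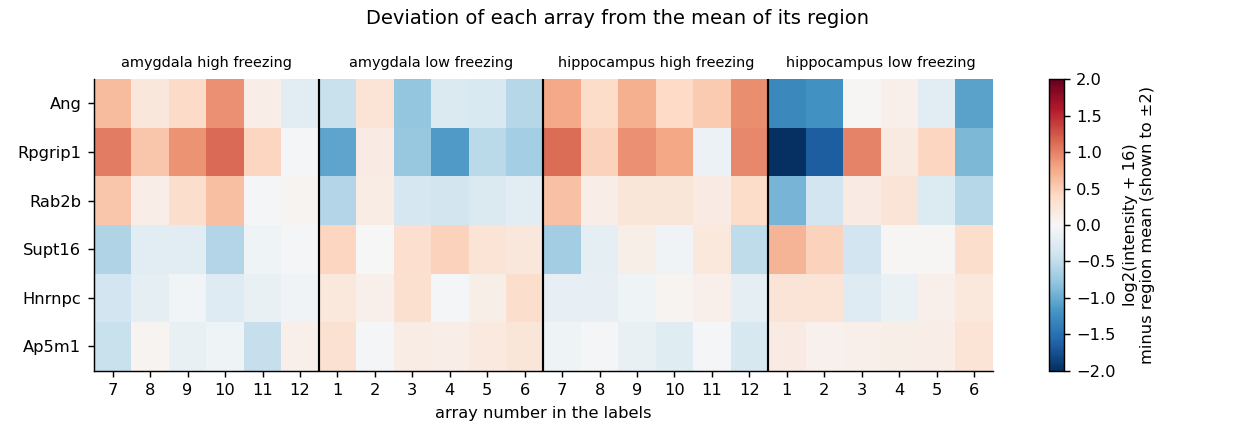
Deviation of each array from the mean of its region in log2(intensity + 16), red above and blue below, for the same 6 probe sets; columns are the 24 arrays in 4 groups and the scale is cut at ±2. Most columns that are red for Ang, Rpgrip1 and Rab2b are blue for Supt16, and the hippocampal low freezing arrays 3, 4 and 5 differ from arrays 1, 2 and 6.

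Probe sets of the same gene did not always follow each other. Both Supt16 probe sets had an r of 0.75 and both Ang probe sets 0.66. The Rab2b probe set that followed Rpgrip1 had r between -0.37 and 0.35 with the other 4 of its gene. The kept probe sets of Hnrnpc had an r of -0.06. For Rab2b and Hnrnpc, then, the shared pattern was seen at 1 probe set each.

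**Figure D4:**
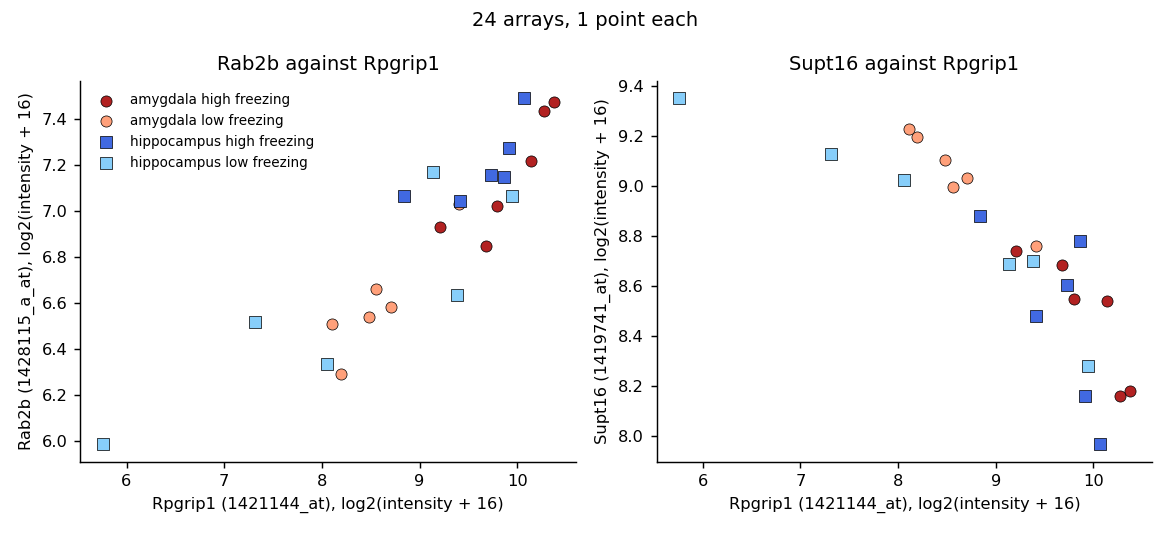
Rab2b 1428115_a_at (left) and Supt16 1419741_at (right) against Rpgrip1 1421144_at in log2(intensity + 16), 1 point per array, with circles for amygdala and squares for hippocampus, dark for high and light for low freezing. Rab2b is higher and Supt16 lower on arrays where Rpgrip1 is higher, in all 4 groups, and hippocampal low freezing array 1 is the extreme point of both plots.

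Ang and Rpgrip1 were then set against 12470 other genes, each at its most alike kept probe set, over the 24 arrays. With the mean of each region removed, the 5 genes most like Ang were Rab2b (r = 0.92), Rpgrip1 (0.88), Samd4 (0.84), Ngdn (0.82) and Pnma2 (0.80). The 5 most like Rpgrip1 were Ngdn (0.92), Rab2b (0.90), Samd4 (0.88), Ang (0.88) and Ppp1r3e (0.87). All of these lie on chromosome 14. With all 4 group means removed, which takes the freezing difference out, the 5 most like Ang were Rab2b (0.85), Rpgrip1 (0.82), Rilpl1 (0.80), Zfp267 (0.76) and Zmiz1 (0.76). For Rpgrip1 they were Ngdn (0.87), Rab2b (0.83), Ppp1r3e (0.82), Baiap2l1 (0.82) and Ang (0.82). Rilpl1 and Baiap2l1 lie on chromosome 5 and Zfp267 on chromosome 3.

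Genes of chromosome 14 made up 3.48% of those ranked. Among the first 20 they were 10 for Ang and 14 for Rpgrip1 with region means removed, and 6 and 8 with group means removed. The counts for Ang include Rab2b and Rpgrip1, and those for Rpgrip1 include Rab2b and Ang. These genes were chosen as neighbours on this chromosome. With region means removed, the freezing differences used in that choice also remain in the ranking. At the other end of the ranking, Supt16 came last of the 12470 genes for Rpgrip1 with region means removed (r = -0.72 at its most alike probe set). The freezing differences on which both genes were chosen remain in that value. With group means removed Supt16 ranked 12443 with r = -0.60.

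The measured neighbours of the 6 genes were then counted. From 15 entries before Ap5m1 to 15 after Rab2b the gene order holds 160 entries, 92 of them protein coding and 37 olfactory receptor entries, and 23 genes other than the 6 had a kept probe set. At the brightest probe set of each, high and low freezing arrays did not separate for any of the 23 in either region. Of all 12471 genes measured, 0.545% did in the amygdala and 0.722% in the hippocampus. With shares this small, none of 23 is near what they give, so nothing is read from it. The sign was above 0 in both regions for 8 and below 0 in both for 6. The median size of the mean freezing difference was 0.11, beside 0.07 over all genes measured.

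The neighbour with the largest mean freezing difference was Gm26782, a predicted gene between Ap5m1 and Ang, at 0.84 ± 0.18 in the amygdala and 0.70 ± 0.18 in the hippocampus. Slc35f4, which encodes a member of a nucleotide sugar transporter family, followed at 0.27 ± 0.16 and 0.39 ± 0.16. Slc39a2, a zinc transporter gene, had 0.10 ± 0.28 and 0.42 ± 0.28. The next were smaller: Parp2, a DNA repair polymerase gene, had -0.17 ± 0.08 and -0.20 ± 0.08, and Pnp, a purine salvage gene, -0.18 ± 0.09 and -0.17 ± 0.09. Mettl3, which encodes the adenosine methyltransferase of messenger RNA, had -0.15 ± 0.08 and -0.18 ± 0.08. Armh4 had 0.05 ± 0.10 and -0.35 ± 0.10, and Naa30, an N-terminal acetyltransferase gene, 0.13 ± 0.08 and 0.14 ± 0.08.

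The measured genes next to the 6 had smaller freezing differences than Ang, Rpgrip1 and Supt16. The largest mean differences among them were those of Pnp, the nearest before Ang, and Naa30, the nearest after Ap5m1, both given above. Rnase4, which shares its promoter region with Ang, had -0.09 ± 0.09 in the amygdala and -0.02 ± 0.09 in the hippocampus, beside 0.70 and 1.23 for Ang. Chd8, a chromatin remodeller gene between Supt16 and Rab2b, had 0.12 ± 0.07 and 0.10 ± 0.07. Tox4, on the far side of Rab2b, had 0.03 ± 0.08 and -0.04 ± 0.08, and Exoc5, an exocyst subunit gene before Ap5m1, 0.03 ± 0.06 and -0.05 ± 0.06. Zfp219, the nearest before Hnrnpc, had -0.01 ± 0.13 and 0.14 ± 0.13. Larger and smaller freezing differences thus stood side by side along the gene order.

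**Figure D5:**
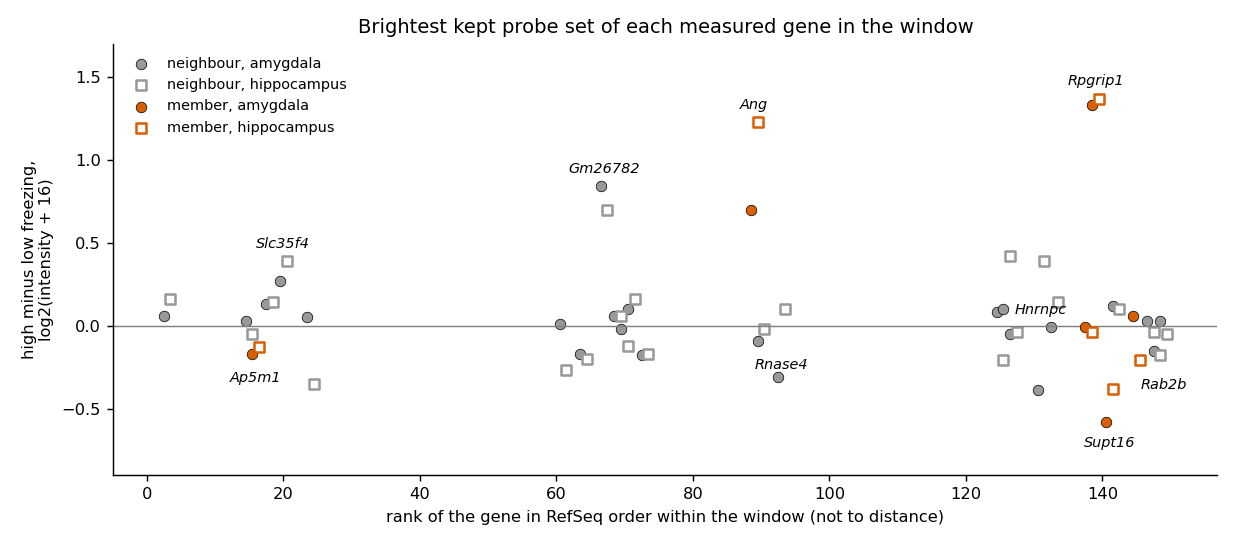
High minus low freezing difference in log2(intensity + 16) at the brightest kept probe set of each measured gene, by rank in the gene order and not by distance; filled circles are amygdala, open squares hippocampus, orange the 6 genes and grey their 23 neighbours. Ang, Rpgrip1 and Gm26782 stand above the other genes. Supt16 stands below them in the amygdala at -0.58, with Arhgef40 next at -0.39. In the hippocampus Supt16 at -0.38 lies close to Armh4 at -0.35. Hnrnpc, Rab2b and Ap5m1 appear at their brightest probe set, where the difference is between -0.21 and 0.06.

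The comparison between regions, averaged over the freezing groups, was not used to choose the genes and was tested with limma, adjusted over all 27023 probe sets. At 1 of the 14 probe sets (7.14%) the regions differed, where 51.2% of all kept probe sets did. The call was Hnrnpc 1418693_at, which was 1.16-fold lower in the amygdala (log2 difference -0.22 ± 0.06, limma adjusted p = 0.00434, n = 12 each). Of all probe sets 24.1% were called lower and 27.1% higher in the amygdala. In the amygdala the means of Hnrnpc 1418693_at were 406 ± 34.2 and 527 ± 53.4 in high and low freezing groups, and in the hippocampus 513 ± 46.7 and 573 ± 86.2 (SD, n = 6 each). The other kept Hnrnpc probe set had a difference of -0.01 ± 0.05 (adjusted p = 0.846 in limma).

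No other probe set passed. Ang 1438936_s_at differed between regions by 0.32 ± 0.16 (limma adjusted p = 0.105) and Ap5m1 1438418_at by 0.15 ± 0.07 (limma adjusted p = 0.0627). Ap5m1 passed when any of 3 amygdala arrays was left out: its adjusted p was 0.0246 without high freezing array 7, 0.0211 without high freezing array 11 and 0.0361 without low freezing array 2. Ang passed without hippocampal low freezing array 3 (limma adjusted p = 0.0478) or 4 (0.0404). Rpgrip1 differed by 0.29 ± 0.30 (limma adjusted p = 0.442), Supt16 1419741_at by 0.09 ± 0.11 (0.496) and Rab2b 1428115_a_at by -0.03 ± 0.11 (0.845). The median size of the regional difference over the 14 probe sets was 0.11, beside 0.20 over all. Rpgrip1 had the largest standard error of the 14, and a p above the threshold does not show that the regions had the same level.

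The tissue labels were read against marker genes. All 5 dentate granule cell markers fell in the amygdala (median log2 difference -2.37), and all 6 markers of central amygdala and striatum rose (median 3.12). Of 5 hippocampal pyramidal cell markers 4 fell in the amygdala, and Wfs1 rose with a log2 difference of 0.34. Of 4 basolateral amygdala markers, 2 were higher and 1 lower. All 4 markers of thalamus and hypothalamus, tissue outside the amygdala, were higher in the amygdala samples (median 2.49). All 5 choroid plexus markers, all 4 ependymal markers and all 4 measured oligodendrocyte markers were higher in the amygdala samples. The regional values of the 6 genes are between dissected samples, and the part of these other cell types in them was not tested.

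Genes with related functions were counted in 6 lists, of which 5 include 1 of the genes described here. At the brightest probe set, 31.6% of all 12471 genes measured were called higher and 24.6% lower in the amygdala, 56.2% in all, and the median regional difference was 0.04. In the list of the RNase A family, which also holds the ribonuclease inhibitor gene Rnh1, 3 of 4 measured genes rose in the amygdala and none fell, with a median of 0.33. Of its 3 ribonuclease genes, Ang among them, 2 rose. Rnase1, a secreted pancreatic-type ribonuclease, was 1.81-fold higher (limma adjusted p = 2.9e-07), and Rnh1 1.26-fold (1.26e-05). Rnase4, next to Ang, was 1.23-fold higher (limma adjusted p = 0.000302).

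Among the FACT and related histone chaperones, 2 of 5 rose in the amygdala and 1 fell, with a median of 0.09. The histone chaperone gene Asf1a was 1.38-fold higher and Nap1l1 1.11-fold, and Supt6, an elongation factor gene, was 1.29-fold lower (limma adjusted p = 2.11e-07, 0.0283 and 2.67e-06). Of 12 hnRNP genes, 3 rose and 2 fell, with a median of -0.03. Raly, whose protein is a close relative of Hnrnpc, was 1.68-fold higher (limma adjusted p = 1.01e-08), and Hnrnpf 1.16-fold. Hnrnpa1 was 1.16-fold lower in the amygdala and Hnrnpu 1.07-fold.

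In the AP-5 complex and its partners 1 of 5 rose, Ap5z1 at 1.33-fold (limma adjusted p = 1.88e-05), with a median of 0.04. Of the 5 genes of Rab2 and its Golgi effectors 1 rose and 1 fell: the golgin gene Trip11 was 1.23-fold higher and Rab2a, the close relative of Rab2b, 1.22-fold lower, with a median of -0.01. Of 5 measured connecting cilium partners of Rpgrip1, 1 rose and 1 fell: Rpgr was 1.22-fold higher and Nphp4 1.33-fold lower, with a median of 0.01. The medians of the freezing differences in these 6 lists were between -0.15 and 0.05 in the amygdala and between -0.05 and 0.04 in the hippocampus. Over all genes measured both medians rounded to 0.00.

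Array numbers recur in both regions, and whether same-numbered arrays shared their level was tested for each gene at its brightest kept probe set. Within the 6 numbers of a freezing label, none of the 12 correlations between amygdala and hippocampus passed, and none had an unadjusted p under 0.05. Pearson's r was between -0.48, for Ang in high freezing, and 0.75, for Hnrnpc in low freezing (exact permutation p = 0.0778, adjusted p = 0.869 over the 12, n = 6, two-sided). Spearman's rho for Hnrnpc was 0.66 (exact permutation p = 0.175, adjusted p = 0.857). For Rpgrip1 r was 0.27 in high freezing and -0.07 in low freezing (exact permutation p = 0.589 and 0.878, n = 6). With 6 numbers per label, the absence of a call does not show that same-numbered arrays were unrelated.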

How the data were processed

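The authors deposited 1 linear intensity per probe set and array for 45101 probe sets on 24 arrays. The software and scaling that made these values are not given in the sources used here. The 64 control probe sets and the dimmest 40% by mean log2(intensity + 16) were left out, which kept 27023 with a lowest mean of 22.87 intensity units. Array medians spanned 0.172 on the log2 scale, under a limit of 0.2, so no further scaling was applied. Dim probe sets such as those of Ang passed this filter partly through the groups where they are brighter. Of all probe sets 34958 carry 1 gene symbol in the platform annotation, 932 several and 9211 none; only the first are named. Gene order and promoters are RefSeq's for GRCm38.p6.

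The 4 group means were estimated jointly from the 24 arrays by limma 3.58.1, run in R 4.3.3 (variance trend, 20 residual degrees of freedom, two-sided tests, Benjamini-Hochberg over all kept probe sets, threshold 0.05) and tested on simulated data. Tables were made with Python 3.11.15, pandas 2.3.3 and numpy 2.4.6. The number of arrays limits the precision. The genes and lists were chosen with earlier results of these data known. Named are all probe sets of the 6 genes, the 8 neighbours with the largest mean freezing difference and the nearest on each side, the 5 genes most alike to Ang and Rpgrip1, and up to 4 called genes per list. Lists and neighbours use the brightest kept probe set of a gene. Alternatives changed the offset (1 or 64), scaling (quantile or median), filter (none or 60%), variance prior, array weights, replicate block, or left out 1 array. The 62 called list and marker genes kept their sign under both other scalings.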

Additional observations from a re-analysis of the deposited data

Results flagged for a closer look

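Rab2b 1452667_at had 1 array far from the others of its group. In the amygdala low freezing group, array 2 read 207 intensity units, the lowest of the 6, where the group's median was 304 and its highest 357. Of 56 groups of arrays examined over the kept probe sets of the 6 genes, this was the only 1 with such an array. Chance gives about 1 in 20 groups, so 1 of 56 is not more than chance gives. The same array stood with the high freezing arrays for Ang, Rpgrip1 and Rab2b 1428115_a_at. Without it the freezing difference of 1452667_at in the amygdala was -0.03, against 0.06 with all arrays.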

How the results depend on the processing

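Regional calls among the 14 probe sets numbered 1 under every alternative that kept all arrays, the replicate block among them, and between 1 and 2 when 1 array was left out; the second call was Ap5m1 or Ang, as given above. Hnrnpc 1418693_at passed throughout, with limma adjusted p from 0.000242 to 0.00822 under the other alternatives and 0.000597 to 0.00981 with 1 array left out. Of 473 regional values under alternatives, 468 stayed on the same side of the threshold. Probe sets whose freezing groups do not overlap in the amygdala, 4 in all, numbered 3 with quantile normalization, with arrays centred on their median or with the dimmest 60% left out. They numbered 4 to 8 with 1 array left out, 5 or fewer except without low freezing array 2. In the hippocampus they numbered 2 in each such case, and 1 with the dimmest 60% left out, since that leaves Ang out. Of 946 freezing differences under alternatives, 944 moved by less than the spread between arrays, Rpgrip1 in the hippocampus (0.87 to 1.71 with 1 array left out) and Supt16 1449578_at in the amygdala (-0.60 to -0.23) included. The others were Ang 1438936_s_at in the hippocampus, 2.35 with an offset of 1 and 0.55 with an offset of 64, since it is dim. The described probe set of each gene kept its sign in 406 of 406 values.

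Array numbers were checked as pairs. Deviations of same-numbered arrays from their group means correlated between -0.079 and 0.086 over 27023 probe sets, and 4 of 12 numbers correlated best with themselves, so the numbers were not used as pairs. The labels do not say whether same-numbered arrays come from 1 animal. With the replicate block the region was called at 13963 probe sets, against 13832 without it. None of the 12 correlations across regions passed under any alternative; with the probe sets described first, a choice added after seeing the data, the lowest exact p was 0.0333 (Spearman's rho 0.89, Ap5m1 in low freezing, adjusted p = 0.4).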
